A study of Homo sapiens with 2 samples.

Results

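The Hippo pathway restrains growth through a kinase relay and a pair of transcriptional coactivators, and its 10 central genes were examined in J82, an established human bladder cancer cell line. The genes are NF2, the kinase genes STK3, STK4 and LATS1, the coactivator genes YAP1 and WWTR1 (which encodes TAZ), and TEAD1, TEAD2, TEAD3 and TEAD4. They were chosen by name, and a gene counted as measured where a probe set of the array carried its symbol and no other. By that rule 9 of the 10 were measured, among 14232 genes in all. LATS1 had no such probe set.

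J82 cells grown in serum-containing medium were stained with the DNA dye Hoechst and sorted by flow cytometry. The side population (SP) keeps little dye, and the non-side population (NSP) is the remainder. Both groups are J82 cells, and the labels give no treatment. Total RNA was hybridised to human exon arrays, 1 of the SP cells and 1 of the NSP cells, so the study sets dye-excluding against dye-retaining cells of 1 line. No value below has a replicate, so no error between samples and no test can be given, and the statements describe 2 arrays only. The labels do not say how many sorts or cultures the RNA came from. In RNA of a sorted population, fewer cells expressing a gene and less RNA of it per cell cannot be told apart.

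In the pathway, the protein of NF2 (Merlin) recruits the relay to the membrane. The kinases MST2 and MST1, encoded by STK3 and STK4, phosphorylate LATS1 and LATS2, and the LATS kinases phosphorylate YAP and TAZ, which are then held in the cytoplasm or degraded. Unphosphorylated YAP and TAZ enter the nucleus and bind the TEAD factors, which contact DNA and without which the coactivators find few of their target genes. Much of this control acts on proteins, by phosphorylation and location, which an array of RNA does not measure.

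TEAD factors recognise the letters GGAATG or, on the other strand, CATTCC. The windows here are the 250 bases before a RefSeq start site (GRCh38.p14), and both orientations were searched. They are shown for the coactivator gene YAP1 and for 3 target genes, CCN2, ANKRD1 and NUAK2, whose values stand against those of the members below. Each window shown holds a match, and the 3 target genes had higher values in SP. The windows shown thus do not stand for all genes of the target list used below. Matches are in capitals and each sequence runs 5′ to 3′ along the gene's strand.
YAP1, chr11:102110197-102110446 (+ strand): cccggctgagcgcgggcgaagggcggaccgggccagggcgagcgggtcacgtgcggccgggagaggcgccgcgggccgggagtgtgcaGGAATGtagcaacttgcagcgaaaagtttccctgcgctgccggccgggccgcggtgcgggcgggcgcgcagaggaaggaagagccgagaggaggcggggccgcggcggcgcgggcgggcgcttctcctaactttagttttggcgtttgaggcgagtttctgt
CCN2, chr6:131951373-131951622 (- strand): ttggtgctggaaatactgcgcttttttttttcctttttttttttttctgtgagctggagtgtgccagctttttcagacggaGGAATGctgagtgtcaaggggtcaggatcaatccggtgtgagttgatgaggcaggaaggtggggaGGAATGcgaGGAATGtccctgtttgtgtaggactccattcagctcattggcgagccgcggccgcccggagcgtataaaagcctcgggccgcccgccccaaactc
ANKRD1, chr10:90921088-90921337 (- strand): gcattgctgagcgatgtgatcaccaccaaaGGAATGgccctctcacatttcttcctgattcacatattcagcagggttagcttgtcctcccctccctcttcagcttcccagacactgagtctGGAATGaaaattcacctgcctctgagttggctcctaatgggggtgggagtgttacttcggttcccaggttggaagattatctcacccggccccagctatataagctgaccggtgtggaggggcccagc
NUAK2, chr1:205321746-205321995 (- strand): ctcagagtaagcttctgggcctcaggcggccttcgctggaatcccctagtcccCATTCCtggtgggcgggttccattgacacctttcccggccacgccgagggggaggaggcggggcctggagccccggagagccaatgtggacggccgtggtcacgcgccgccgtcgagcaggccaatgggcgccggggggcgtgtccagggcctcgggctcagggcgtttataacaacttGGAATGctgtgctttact
The CCN2 window held 3 matches, beginning 169, 104 and 95 bases before the start. ANKRD1 held 2, at 220 and 128 bases, and NUAK2 held 2, at 197 and 18 bases. YAP1 held 1, at 162 bases. Of 35116 windows of this length in the RefSeq table, 4175 (11.9%) held at least 1 match. The table had windows for 7 of the 10 members, and YAP1 was the 1 with a match. It had windows for 16 of the 22 genes of the target list used below, and 8 of these 16 held a match in at least 1 window, beside 3902 of all 27305 genes in the table. The list is one of YAP/TAZ-TEAD targets, so a share above that of all genes was likely beforehand and says nothing about SP or NSP. Among its genes without a window were CCN1 and GADD45A. A match is a run of letters and not a measured binding site.

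The arrays were alike overall. Values ran from 2.11 to 13.99 (log2 signal), and Pearson's r between the columns was 0.986 over the 22011 probe sets, which do not vary independently. The median of all values, 7.44, is called the floor below, and 7549 genes reached it on at least 1 array. Among these the difference, SP minus NSP on the log2 scale, had a median of -0.05, and its SD over the genes was 0.281. Of 13 markers of J82 and urothelial cancer cells, 8 reached the floor, including the keratin genes KRT8, KRT18 and KRT19, whereas the uroplakin genes UPK1B, UPK2 and UPK3A did not. PPARG was the 1 marker at least 1.5-fold apart (1.62-fold higher in SP), beside 4.53% of all genes at the floor. Of 7 measured immune markers 3 reached the floor, the macrophage gene CD68 (9.35 in SP and 9.66 in NSP), CD14 (7.73 and 7.64) and NKG7 (7.56 and 7.31). PTPRC, which marks all leukocytes, was below it. Of 10 endothelial and fibroblast markers 3 reached the floor, the matrix gene LUM (10.74 and 11.13), the receptor gene PDGFRB (8.53 and 7.99, 1.45-fold higher in SP) and the collagen gene COL1A1 (7.70 and 7.53). The endothelial gene PECAM1 was below it. The part of these markers in the results was not tested.

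None of the members was far apart between the populations. Of the 9 measured, 4 were higher and 5 lower in SP, and the differences ran from -0.21 to 0.19. Over all 14232 genes, 49.5% were lower in SP. The members' median was -0.07, against 0.00 over all genes. Among the 7 members that reached the floor, none differed by 1.5-fold (a log2 difference of 0.58), and none by as much as 0.32 on the log2 scale. Over all genes at the floor, 4.53% differed by at least 1.5-fold, 3.1% being higher and 1.43% lower in SP, and 19.3% differed by at least 0.32. A count of 0 among 7 is thus near the background and says nothing particular about these genes. In direction, 5 of the 7 were lower in SP, beside 59.6% of all genes at the floor. TEAD3 is among these 5 and reached the floor in NSP alone (7.53, beside 7.34 in SP).

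**Figure D1:**
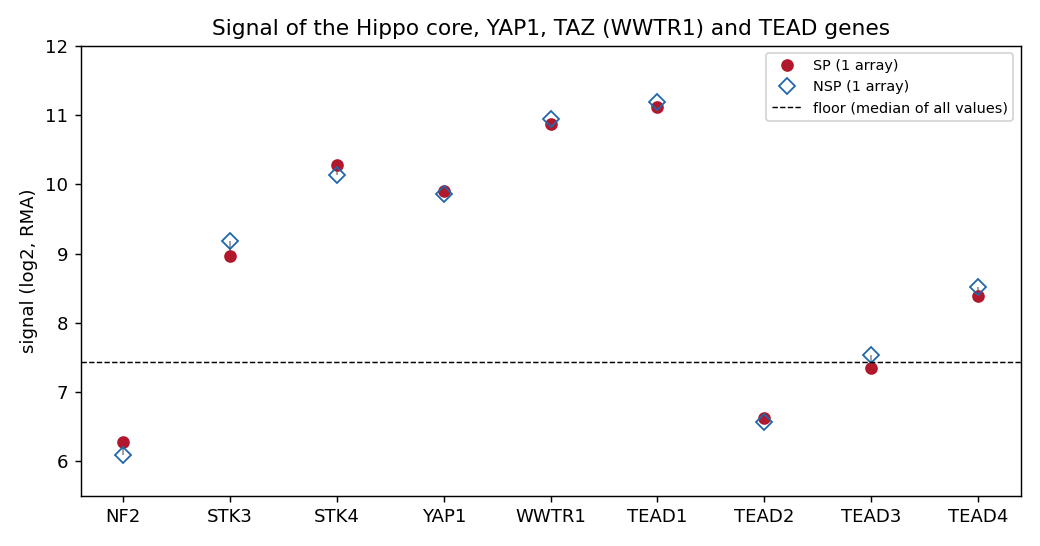
Signal (log2, RMA) of the 9 measured genes on the SP array (filled circles) and the NSP array (open diamonds), with the floor of 7.44 as a dashed line and a grey line joining each pair. The widest gap is that of STK3 (-0.21, SP minus NSP), and NF2 and TEAD2 lie below the floor on both arrays. Levels of different genes come from different probes and have no order.

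Upstream, NF2 had a signal of 6.28 in SP and 6.09 in NSP, both under the floor. The difference of 0.19 was the highest among the members, but the deposited values come without a detection call. RMA also shrinks the differences of dim probe sets, so the size of this difference is uncertain. Of all genes, 37.5% differed by at least as much in either direction. NF2 is a tumour suppressor gene, mutated in an inherited syndrome of nerve sheath tumours.

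The closely related kinase genes STK3 and STK4 lay on opposite sides of 0. They did so too after quantile normalisation and after removal of a trend on signal level. STK3, which encodes MST2, had 8.97 in SP and 9.18 in NSP, a difference of -0.21 (1.16-fold lower in SP). STK4, which encodes MST1, had 10.27 in SP and 10.13 in NSP, a difference of 0.14 (1.11-fold higher). The gap between the 2 differences was 0.36 on the log2 scale. Each stayed inside the spread of genes with like signal. Among 2247 genes within 0.5 of the mean signal of STK3, the central 95% of differences ran from -0.48 to 0.67, and among 956 genes around STK4 it ran from -0.47 to 0.79.

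For LATS1, which encodes the kinase that acts directly on YAP and TAZ, the array had 1 probe set, and its annotation also names PPIL4. That probe set read 7.46 in SP and 7.39 in NSP, a difference of 0.07, and cannot be assigned to either gene. The paralogue LATS2 was measured by a probe set of its own and is given with the wider pathway below.

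The coactivator genes were nearly level. YAP1 had 9.91 in SP and 9.85 in NSP, a difference of 0.05, which is 1.04-fold. Of genes at the floor, 82.1% differed by at least as much. A second probe set names YAP1 together with STXBP5 and was left out by the rule. It read 6.997 in SP and 7.387 in NSP, a difference of -0.39, and its signal cannot be assigned to YAP1. WWTR1 had 10.87 in SP and 10.95 in NSP, a difference of -0.08, and 74.6% of genes at the floor differed by at least as much. The 2 coactivator genes thus differed by 0.13 from each other in their SP minus NSP values.

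The TEAD family gave 3 values slightly lower in SP and 1 slightly higher. TEAD1 was measured by 2 probe sets, which read 11.31 and 10.93 in SP and 11.37 and 11.01 in NSP. Their differences of -0.06 and -0.08 had the same sign, and the mean was -0.07. This is the sole member for which separate probe sets can be set beside each other.

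TEAD4 had 8.38 in SP and 8.52 in NSP, a difference of -0.14. TEAD3 had 7.34 in SP and 7.53 in NSP, so that its NSP value alone reached the floor, and its difference was -0.19 (1.14-fold lower in SP). TEAD2 had 6.62 in SP and 6.56 in NSP, both under the floor, with a difference of 0.06. Of genes at the floor, 55.8% differed by at least as much as TEAD4 and 42.2% by at least as much as TEAD3. All lay inside the central 95% of genes with like signal, which ran from -0.51 to 0.48 around TEAD3, from -0.51 to 0.60 around TEAD4, from -0.40 to 0.79 around TEAD1 and from -0.45 to 0.43 around TEAD2. The 4 factors bind the same DNA letters.

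**Figure D2:**
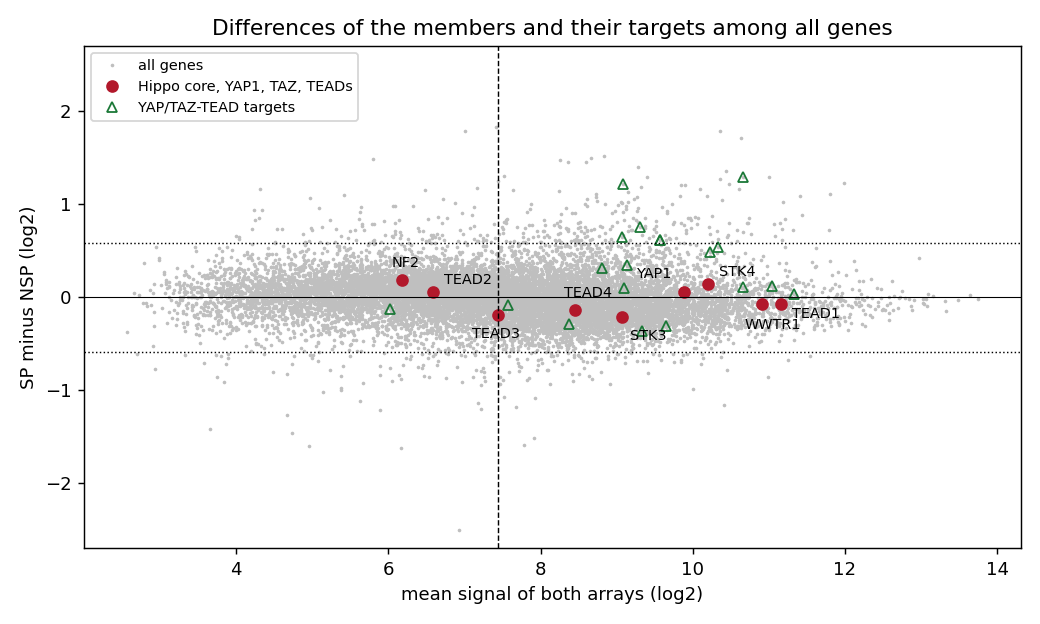
SP minus NSP (log2) against the mean signal of both arrays (log2) for all 14232 genes (grey), the 9 measured members (red circles, named) and 19 YAP/TAZ-TEAD target genes (green triangles). Dotted lines mark 1.5-fold and the dashed line marks the floor. All 9 members lie inside the dotted lines, whereas 6 targets lie above the upper one.

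The signs of WWTR1 and TEAD1 turned when a smooth trend of the difference on signal level was removed (lowess, span 0.3), to 0.01 for each. Bright genes were on balance slightly lower in SP: among 488 genes around the signal of WWTR1 the median difference was -0.07, and among 383 around TEAD1 it was -0.08. These medians are close to the members' own values of -0.08 and -0.07. The other 7 members kept their sign under all of the 4 other scalings or summaries tried. For these 7, the brightest probe set and median centring left the values unchanged. Quantile normalisation and trend removal alone could thus have turned a sign. With the trend removed YAP1 had a difference of 0.14 and STK4 one of 0.23.

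**Figure D3:**
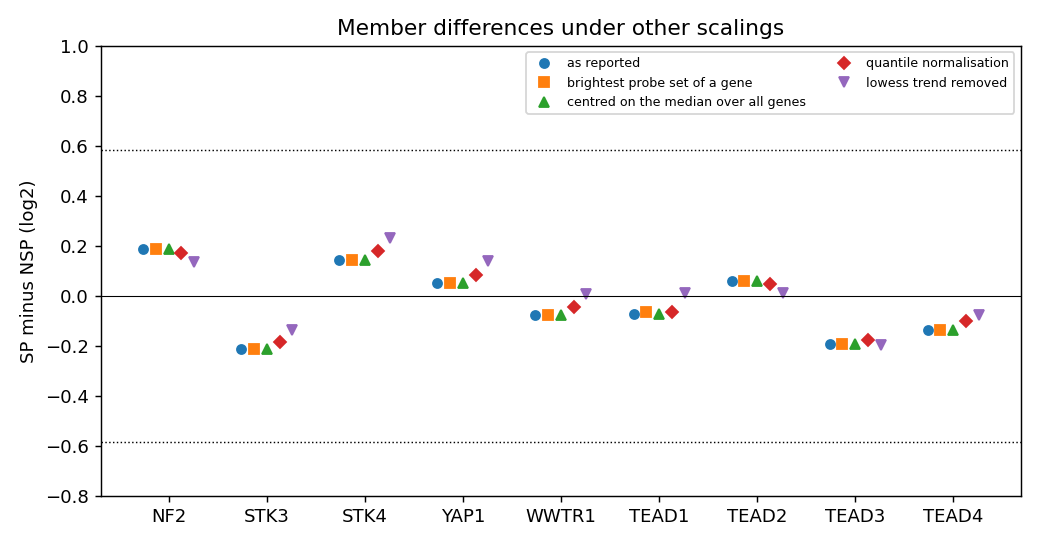
SP minus NSP (log2) of each member as reported, for the brightest probe set of the gene, after centring on the median, after quantile normalisation and after removal of the lowess trend. Dotted lines mark 1.5-fold. No member passes either line under any of the 5 treatments, and WWTR1 and TEAD1 cross 0 when the trend is removed. Centring changed no value, and the brightest probe set changed TEAD1 alone.

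The rest of the core relay held 2 kinase genes with larger values in SP. LATS2, the paralogue of LATS1 and itself a known target of YAP and TAZ, had 9.31 in SP and 8.96 in NSP, a difference of 0.35 (1.27-fold). STK38L, which encodes the LATS-related kinase NDR2, had 8.52 and 8.09, a difference of 0.42 (1.34-fold), whereas its paralogue STK38 (NDR1) had a difference of -0.16. The scaffold gene SAV1, whose protein joins MST to LATS, had 8.72 in SP and 8.73 in NSP. The LATS cofactor genes MOB1A and MOB1B had differences of -0.11 and -0.04, the latter with both values under the floor. LATS2 and STK38L were higher in SP by at least 0.32 on the log2 scale, as were 647 of all 7549 genes at the floor. Of these 6 genes of the relay 5 were at the floor, and none of the 5 differed by 1.5-fold. Over all genes at the floor 4.53% did, so none among 5 is near the background.

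The MAP4K and TAO kinases can phosphorylate LATS in place of MST. Of 10 listed genes 8 were measured and 6 reached the floor. The differences of the 8 ran from -0.10 to 0.20 with a median of 0.08, and the median of the 6 at the floor was 0.05. Of those 6, MAP4K5 (0.20), MAP4K4 (0.14), MINK1 (-0.10) and TAOK1 (-0.09) were the furthest from 0.

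The scaffolds and polarity genes upstream of the kinases held the largest differences outside the targets. FRMD6, which encodes a FERM-domain protein that activates the relay, had 8.82 in SP and 7.68 in NSP, a difference of 1.14 (2.20-fold higher in SP). WWC1, which encodes KIBRA, a scaffold that binds LATS, had 8.89 and 8.09 (0.80, 1.74-fold). Of all genes at the floor, 3.1% had a value at least 1.5-fold above NSP. FRMD6 and WWC1 were the 2 of 13 scaffold genes at the floor to be so, and none was as much lower. FAT1, an atypical cadherin gene, had a difference of 0.49, and LLGL1, a Scribble-complex gene, one of -0.20. The median over the 18 measured genes was 0.04, so most of the group lay near 0. AMOTL2 and PTPN14 had no probe set of their own.

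Of the genes whose products oppose or modulate the kinases (the STRIPAK phosphatase complex, Ajuba proteins and RASSF adaptors), 14 of 20 were measured, 7 with the higher value in SP and 7 in NSP. The STRIPAK gene STRN4 had a difference of -0.35, CTTNBP2NL of the same complex one of 0.33, and the adaptor genes RASSF5 and RASSF3 had 0.40 and 0.35. Among the genes of the 14-3-3 proteins, casein kinase 1 and the beta-TrCP ubiquitin ligases, which retain or degrade YAP and TAZ, 8 of 11 were measured. FBXW11 and BTRC, the paralogous beta-TrCP genes, had differences of 0.31 and 0.28, the 14-3-3 genes YWHAG and YWHAB 0.22 and -0.18. BTRC reached the floor in SP alone (7.52, beside 7.24 in NSP). None of the genes in these 2 groups reached 1.5-fold at the floor. Over all genes at the floor 4.53% did, so this is near the background.

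Partners that bind TEAD or the coactivators lay mostly above 0. Of 7 listed genes 6 were measured and 5 were higher in SP, beside 7007 of all 14232 genes, with a median of 0.24. Among the 5 that reached the floor 4 were higher, beside 3027 of 7549 genes. TP73 is among these 4 and reached the floor in SP alone (7.62, beside 7.42 in NSP). RUNX2, a transcription factor gene whose product binds YAP and TAZ, had 9.01 in SP and 8.45 in NSP (0.56, 1.48-fold), RUNX1 had 0.40, the vestigial-like gene VGLL3 0.26 and TP73 0.20. None reached 1.5-fold as deposited, beside 4.53% of all genes at the floor. After quantile normalisation, and after removal of the trend on signal, RUNX2 did (0.60 and 0.63).

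The targets of the complex had larger differences than the members. Of a 22-gene signature of YAP/TAZ activity 19 genes were measured, and 14 of them were higher in SP and 5 lower, beside 7007 higher and 7046 lower of all genes. Their median was 0.32, beside -0.07 for the 9 members and 0.00 for all genes. Of 18 targets at the floor 6 were higher in SP by 1.5-fold or more and none as much lower, beside 3.1% and 1.43% of all genes at the floor. CCN1, a matricellular protein gene, had 11.31 in SP and 10.02 in NSP (2.44-fold). NUAK2, which encodes an AMPK-related kinase, had 9.70 and 8.48 (2.33-fold), and GADD45A, a growth arrest gene, had 9.68 and 8.93 (1.68-fold).

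Of the 3 targets whose windows are printed above, NUAK2 was thus 2.33-fold higher in SP, and the other two lay closer to the 1.5-fold line. ANKRD1, a nuclear cofactor gene, had 9.39 in SP and 8.75 in NSP (1.56-fold higher), and CCN2, the connective tissue growth factor gene, had 10.60 and 10.06 (1.45-fold). YAP1, whose window also held a match, differed by 1.04-fold. Other measured targets with a window varied. AXL, with a match in 1 of its 2 windows, had a difference of -0.36, and TGFB2, with 1 match, had 0.61. F3 and MYOF, whose windows held no match, had 0.61 and 0.49. CCDC80 and RBMS3, also without a match, had -0.31 and -0.29. Whether matches go with the differences was not tested. The target list was picked with an earlier view of these data, and no difference between it and the members was tested.

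**Figure D4:**
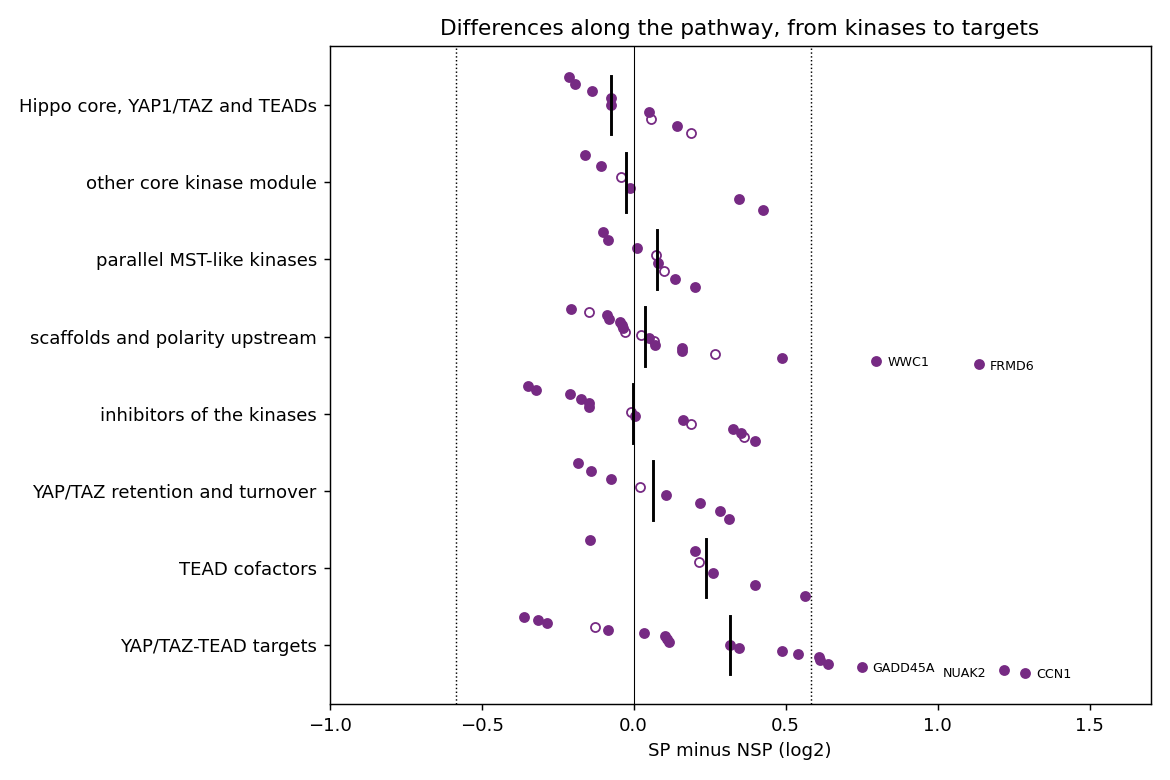
SP minus NSP (log2) of each measured gene in 8 gene groups of the pathway, with group medians as black bars, genes below the floor as open circles and 1.5-fold as dotted lines. Past the upper dotted line lie FRMD6 and WWC1 among the scaffolds and 6 targets, of which CCN1, NUAK2 and GADD45A are named. The members lie between -0.21 and 0.19.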

How the data were processed

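The authors deposited 1 table of log2 signal values, made with RMA and Partek per the submitters' processing notes. Per the labels' protocols, each array took cDNA made from 250 ng of total RNA. Versions, probe set definition, filters and genome build were not stated in those notes or labels. Detection above background was not computed, and 2 arrays limit the precision.

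Of 22011 probe sets 14432 named 1 gene, 2408 several and 5171 none. Current symbols came from RefSeq (GRCh38.p14) by Entrez identifier for 14404, and averaging a gene's probe sets gave 14232 genes. The difference is SP minus NSP, with the fold computed from its size. Counts took genes with at least 1 value at or above the floor, the median of all values. No test was run. Counting and trend removal were checked on simulated data.

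The members and lists were chosen with earlier results of these data known. Named were all members, LATS2, SAV1, MOB1A, MOB1B, CCN1, CCN2, ANKRD1 and AMOTL2, and up to 4 genes of each list with the largest difference at the floor. UPK1B, UPK2, UPK3A, PTPRC, PECAM1, PTPN14, AXL, TGFB2, F3, MYOF, CCDC80 and RBMS3 were added with their values known. Alternatives were the brightest probe set, median centring, quantile normalisation, a lowess trend, other floors and thresholds, and the mean over members. Software was matplotlib 3.10.9, statsmodels 0.14.6, scipy 1.17.1, pandas 2.3.3 and numpy 2.4.6 under Python 3.11.15.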

Additional observations from a re-analysis of the deposited data

How the results depend on the processing

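The 9 measured members stayed inside 1.5-fold under each of the 9 alternatives to the count, including no floor (0 higher, 0 lower) and a lower threshold of 0.32 on the log2 scale (0 higher, 0 lower). The number of members lower in SP went from 5 to 3 when the lowess trend on signal was removed, because WWTR1 and TEAD1 crossed 0. The members' median was then 0.01, and it was -0.05 after quantile normalisation and -0.03 as a mean. Among the targets, 2 were at least 2-fold higher in SP against 6 at 1.5-fold, and at the lower threshold 1 was lower and 9 higher. Of all genes at the floor 4.53% were past 1.5-fold and 0.729% past 2-fold. At the lower threshold 647 of these 7549 genes were higher in SP and 809 lower. The targets' median ran from 0.32 to 0.39 over the scalings. Quantile normalisation and trend removal turned the split of all genes at the floor past 1.5-fold from 234 higher and 108 lower to 263 and 92, and 292 and 80. Of the values for single genes and other lists, 245 stayed within the SD over genes (0.281) or within 1.5 times the count, and 7 moved further. Those counted under median centring could not have moved. No paired analysis was possible because each population has 1 array. With no replicate, neither the members' differences (from -0.21 to 0.19) nor the larger ones of other genes can be told apart from array-to-array variation.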
